A study of Mus musculus with 12 samples.

Results

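The genes described here encode 5 subunits of the phagocyte NADPH oxidase (Cybb, Cyba, Ncf1, Ncf4 and Rac2) and 4 proteins of cellular redox defence (Txnrd1, Gpx1, Slc7a11 and Nfe2l2). They were taken from the deposited count table by gene symbol. All 9 were among its 39666 genes, and all 9 passed the filter on low counts that left 18302 genes to test. The samples were airway eosinophils of wild-type C57BL/6 mice aged 8 to 12 weeks, in which an allergic airway inflammation had been induced. Every mouse had received 20 µg of ovalbumin with 4 mg of alum on days 0 and 7, had breathed a 1% ovalbumin mist for 40 minutes on days 16 to 18, and was harvested on day 19. Lavage fluid was pooled over mice, and eosinophils from each of 6 pools were sorted into TREM-1+ cells and TREM-1- cells, which gave 6 libraries of each. The eosinophil gate took Siglec-F+ cells with high side scatter that carried CD45 and CD11b and little or intermediate CD11c and Ly6G. TREM-1 is an activating receptor of myeloid cells. No unsensitized mice are part of the comparison, so both groups come from inflamed airways.

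The phagocyte NADPH oxidase moves electrons from cytosolic NADPH across a membrane to oxygen and so makes superoxide. Its catalytic core in the membrane is a dimer of gp91phox, encoded by Cybb, and p22phox, encoded by Cyba. The core is switched on when a cytosolic complex that includes p47phox (Ncf1) and p40phox (Ncf4) docks onto it together with a Rac GTPase, which in blood cells is mainly Rac2. Eosinophils are known for a strong respiratory burst, in which the hydrogen peroxide formed from superoxide also feeds eosinophil peroxidase. Peroxide is removed by glutathione peroxidases such as GPX1 and by peroxiredoxins, which are recharged through glutathione and through thioredoxin. Thioredoxin reductase 1 (Txnrd1) keeps thioredoxin reduced, SLC7A11 imports the cystine from which glutathione is made, and NRF2, encoded by Nfe2l2, is the transcription factor that drives many of these defence genes.

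The TREM-1+ libraries held 8626701 to 19274912 counts in total, against 16513387 to 21234053 in the TREM-1- libraries. The smallest count behind any value of the 9 genes was 771. Levels are CPM, counts relative to the library's scaled total, with scaling factors from the trimmed mean of M values (TMM) over all tested genes. Trem1, the sorted antigen, stood higher in TREM-1+ in 6 of 6 lavages, by 2.43-fold to 3.98-fold. The eosinophil genes Siglecf (795.6 CPM in TREM-1+, against 875.4 CPM in TREM-1- cells, means of 6), Ccr3 (816 and 984.6 CPM) and Prg2 (622.8 and 490.2 CPM) were abundant in both groups, though the eosinophil markers themselves moved with the sort. Of 10, 6 were called lower and 2 higher (80%, where 9.82% of all tested genes were called). Ear1, whose close paralogs make its count uncertain, averaged 52.2 CPM in TREM-1+, against 145.9 CPM in TREM-1-, without overlap, while Prg3 was low in both (4.68 and 7.33 CPM). The libraries of lavages 1 and 2 lay closer to each other than any other 2 of a group, and they are treated below both as separate pools and summed to 1. Markers of other cell types moved too. The summed level of 12 neutrophil markers was 1453 to 2444 CPM in TREM-1+, against 1761 to 2582 CPM in TREM-1- libraries, lower in TREM-1+ in 6 of 6 lavages. Retnlg alone set that direction: without it, a choice made after seeing the data, the sum was 543.8 to 846.5 CPM in TREM-1+, against 510.2 to 812.2 CPM in TREM-1-, higher in TREM-1+ in 6 of 6. Of the 12, 8 passed the filter on low counts and all 8 were called, 6 higher and 2 lower (Retnlg and Mmp9). Of all tested genes 3.1% were called higher and 6.72% lower. Mmp8, Camp, Elane and Mpo did not pass the filter, and Elane was at 0 in every library. The sum of 10 alveolar macrophage markers was 1208 to 1867 CPM in TREM-1+, against 1122 to 1591 CPM in TREM-1- libraries, higher in TREM-1+ in 6 of 6 lavages, while Marco, Fabp4 and Krt79 of that list averaged below 1 CPM over the 12 libraries. Without Car4 that sum was higher in TREM-1+ in 4 of 6 lavages and lower in lavage 1 (920.5 CPM in TREM-1+, against 957.9 in TREM-1-) and lavage 2 (837 CPM in TREM-1+, against 894 in TREM-1-). Its largest term in each library was Itgax, which was not called (895.2 CPM in TREM-1+, against 907.9 CPM in TREM-1-). Chil3 differed widely between pools. It had 32.3 and 25.9 CPM in TREM-1+ of lavages 1 and 2, and 218.3 to 572.6 CPM in TREM-1+ of lavages 3 to 6. In TREM-1- it had 18.3 and 2.86 CPM, and 79.5 to 464.1 CPM. Markers of T and innate lymphoid cells summed to 6.82 to 105.2 CPM in TREM-1+, against 6.68 to 54.8 CPM in TREM-1- libraries. Of 8 tested, 7 were called higher, beside 3.1% of all tested genes. Their part in the results below was not tested, and in sorted bulk samples fewer cells of a type and less RNA per cell cannot be told apart.

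In TREM-1+ eosinophils the redox enzyme genes Txnrd1 and Gpx1 and the oxidase genes Ncf1 and Rac2 stood lower than in the TREM-1- cells of their lavage, and the cystine transporter gene Slc7a11 was higher. The other 4 genes, Cybb, Cyba, Ncf4 and Nfe2l2, did not pass the test. A gene was called at a Benjamini-Hochberg adjusted p below 0.05 over all tested genes, in edgeR's quasi-likelihood test with the lavage as a block. By that rule 5 of the 9 genes were called, beside 9.82% of all tested genes. Of these, 4 were lower and 1 higher, where 6.72% of all tested genes were lower and 3.1% higher. Fold changes were small in both directions, from 0.760 times in Txnrd1 to 1.17 times in Slc7a11. All 6 pairs had the same sign in the 5 called genes, 4 lower and 1 higher, against 8.31% of tested genes that were lower and 5.08% that were higher in 6 of 6 pairs. With library totals alone, without TMM factors, the median over all tested genes moved to 0.13 on the log2 scale, and the called genes of the whole table split into 1880 higher and 376 lower, where TMM gave 568 higher and 1229 lower. On that scale Txnrd1 and Gpx1 were still called lower and Slc7a11 higher, Ncf1 (-0.06) and Rac2 (-0.05) were not called, and Cybb (0.14, adjusted p = 0.0204) was called higher, close to the median of all genes. The changes below are therefore relative to the median gene. Without the lavage block the adjusted p of the 5 called genes lay between 0.0662 in Txnrd1 and 0.917 in Slc7a11.

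**Figure D1:**
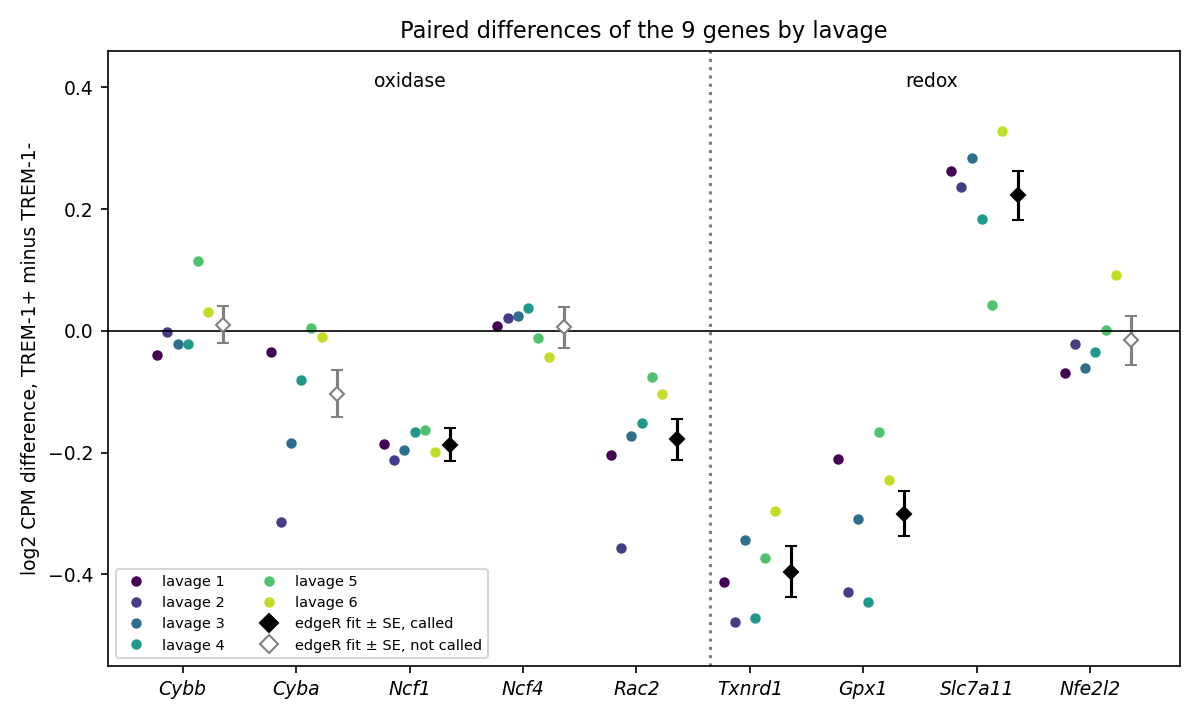
Difference of log2 CPM, TREM-1+ minus TREM-1-, of the 9 genes; each dot is 1 lavage, and each diamond is the edgeR log2 fold change with its standard error, filled where the gene was called. All 6 dots of Ncf1, Rac2, Txnrd1 and Gpx1 lie below 0 and all 6 of Slc7a11 above it, with Ncf1 the most tightly grouped.

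Levels of different genes were compared per kilobase of the longest coding transcript in GENCODE vM21. Ncf1 stood highest, at 725.2 ± 61.9 CPM per kilobase in TREM-1+ and 825.8 ± 74.3 in TREM-1- eosinophils (SD, n = 6), which placed it at rank 29 of 14616 genes with a length. Gpx1 (367 ± 61.2 and 451 ± 71.2 CPM per kilobase in TREM-1+ and TREM-1-) and Cyba (370.7 ± 57.9 and 399 ± 67.3) came next, with overlapping ranges. Rac2 (262 ± 30.1 and 297.7 ± 44.8) and Cybb (264.8 ± 37.0 and 262.8 ± 36.6) also overlapped each other. Ncf4 lay below all of these at 145 ± 10.6 and 144.8 ± 10.2 CPM per kilobase. The regulator and the remaining redox genes were far lower. Nfe2l2 stood at 45.4 ± 6.59 and 45.9 ± 6.78, Txnrd1 at 25.7 ± 2.45 and 33.8 ± 3.88, and Slc7a11 at 17.5 ± 4.42 and 15 ± 3.68 CPM per kilobase. The ranges of Nfe2l2 and Txnrd1 overlapped in TREM-1- only and those of Txnrd1 and Slc7a11 in TREM-1+ only. A form shorter than the longest would raise a gene's value per kilobase, so this order holds for the longest forms alone. The longest and shortest coding forms differ widely in Cybb (4752 and 390 bases), Rac2 (3038 and 254), Txnrd1 (3622 and 581) and Slc7a11 (9223 and 2419).

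**Figure D2:**
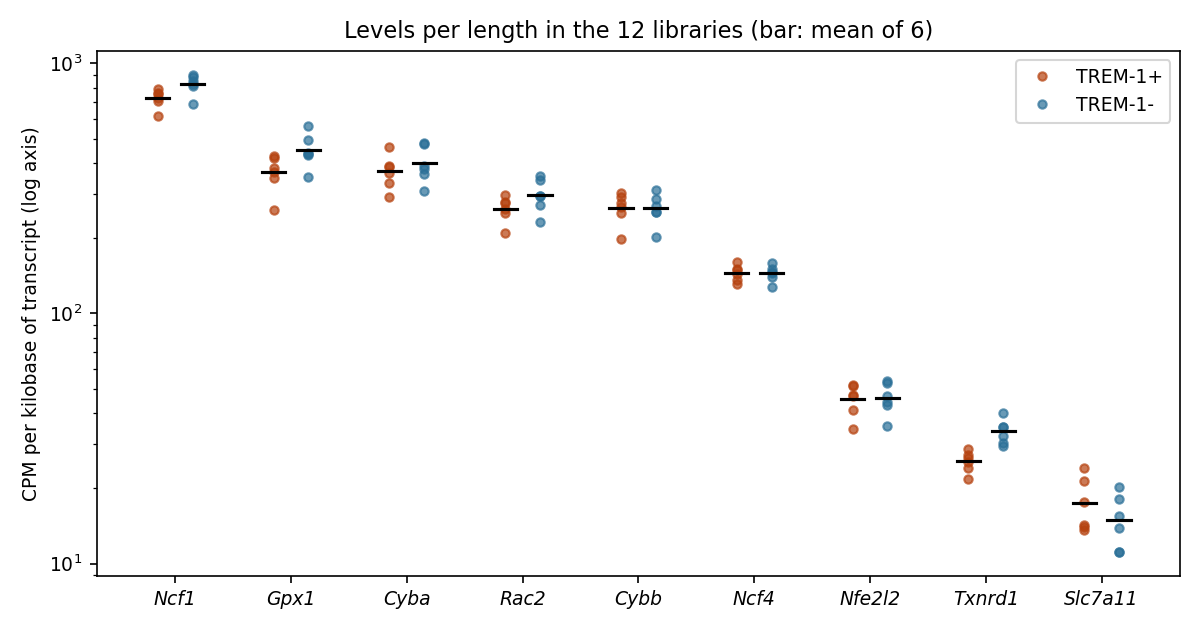
CPM per kilobase of transcript (log axis) of the 9 genes, ordered by their TREM-1- mean; each dot is 1 library, TREM-1+ left and TREM-1- right, and the bar is the mean of 6. The 5 oxidase genes and Gpx1 lie above 100 CPM per kilobase, and Nfe2l2, Txnrd1 and Slc7a11 below them.

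The 2 membrane subunits did not pass the test. Cybb, whose product carries the electrons, had 1440, 1270, 1196, 944.8, 1314 and 1386 CPM in the TREM-1+ libraries of lavages 1 to 6, against 1479, 1273, 1213, 959.5, 1213 and 1357 CPM in their TREM-1- partners. The groups overlapped almost wholly, and the pairs differed by 0.973-fold to 1.08-fold. Across the pairs the fitted difference was 0.01 ± 0.03 log2 units (SE; edgeR adjusted p = 0.911), and its sign turned without lavage 5. Cyba, whose product stabilizes gp91phox and anchors p47phox, had 345, 288.2, 247.6, 217.5, 270.3 and 286.2 CPM in TREM-1+, against 353.6, 358.3, 281.5, 230, 269.4 and 288.3 CPM in TREM-1- libraries. It was lower in TREM-1+ in 5 of 6 pairs, with the widest gaps in lavage 2 (0.804 times) and lavage 3 (0.880 times) and nearly level values in lavages 5 and 6. The fitted difference was -0.10 ± 0.04 log2 units (SE; edgeR adjusted p = 0.0968), and it was 0.02 with library totals alone.

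Of the cytosolic subunits, Ncf1 fell and Ncf4 did not pass the test. Ncf1, the organizer that binds p22phox once phosphorylated, had 2282, 2182, 2088, 1772, 2186 and 2029 CPM in TREM-1+ libraries, against 2597, 2529, 2391, 1989, 2447 and 2328 CPM in TREM-1- libraries. The levels of the groups overlapped because lavage 4 was low in both, yet within each lavage TREM-1+ stood at 0.863 to 0.893 times its partner. The SD of the 6 paired log2 differences, 0.019, was the smallest of the 9 genes. Across the pairs the fitted difference was -0.19 ± 0.03 log2 units (SE, edgeR adjusted p = 5.09e-06). With library totals alone it was -0.06 and not called (adjusted p = 0.358). Flipping the signs of the 6 pairs in an exact permutation test (two-sided) returned an unadjusted p = 0.0312 for Ncf1. Rac2, Txnrd1, Gpx1 and Slc7a11 had the same value, which is the lowest that 64 patterns allow. After Benjamini-Hochberg adjustment over the 9 genes, the permutation p of each of these 5 was 0.0562, above 0.05. In the GENCODE annotation an exon of Gtf2ird2 lies on the opposite strand of Ncf1, and no source used here says whether the counting used strand. Gtf2ird2 had at most 2274 counts in a library, where Ncf1 had at least 17265.

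Ncf4, whose product binds a membrane phosphoinositide and supports oxidase activity at phagosomes, had 220.6, 235.4, 218.1, 192.3, 211.3 and 199 CPM in TREM-1+, against 219.4, 232.1, 214.5, 187.4, 213.1 and 205.1 CPM in TREM-1- libraries. No pair differed by more than 1.03-fold, and the fitted difference was 0.01 ± 0.03 log2 units (SE; edgeR adjusted p = 0.960). The ratio of Ncf1 to Ncf4 per kilobase was lower in TREM-1+ in 6 of 6 lavages, with 4.68 to 5.26 in TREM-1+ against 5.39 to 6.01 in TREM-1-. That direction restates the change of Ncf1.

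**Figure D3:**
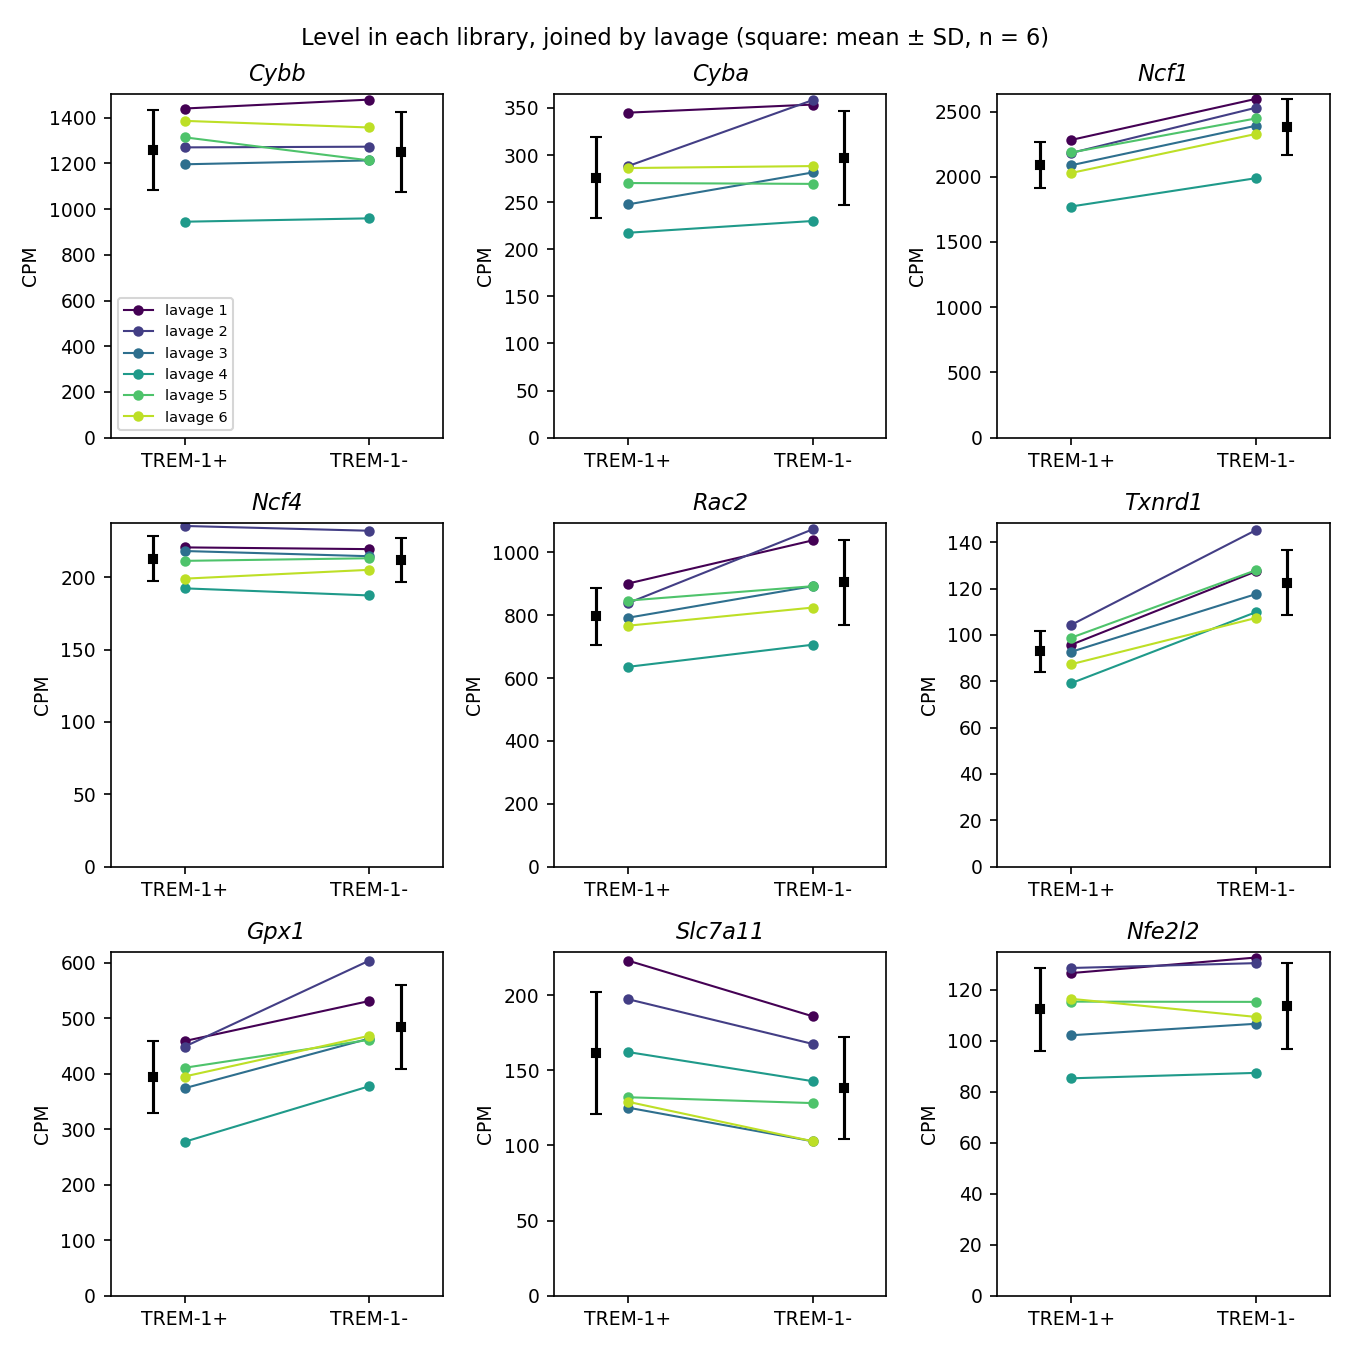
CPM (linear axis from 0) of each of the 9 genes in every library, TREM-1+ left and TREM-1- right; a line joins the libraries of 1 lavage, and the squares give mean ± SD (n = 6). The lines of Ncf1, Rac2, Txnrd1 and Gpx1 all climb towards TREM-1-, those of Slc7a11 all descend, and lavage 4 is the lowest in most panels.

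Rac2, the GTPase of the active oxidase, fell. It had 900.5, 838.2, 791.8, 635.6, 846.4 and 766.5 CPM in TREM-1+ libraries of lavages 1 to 6, against 1038, 1073, 892.3, 706, 892.2 and 824.2 CPM in TREM-1- libraries. The largest gap was in lavage 2, at 0.781 times, and the smallest in lavage 5, at 0.949 times. The fitted difference was -0.18 ± 0.03 log2 units (SE, edgeR adjusted p = 3.02e-04). With library totals alone it was -0.05 and not called (adjusted p = 0.497). Rac1, the widely expressed relative of Rac2, had 259.7 ± 44.9 CPM in TREM-1+, against 268.6 ± 44.7 CPM in TREM-1- eosinophils (SD, n = 6, edgeR adjusted p = 0.495). Per kilobase it stood at 62.4 CPM in TREM-1+, against 64.6 CPM in TREM-1-, far under Rac2. How reads shared between these related genes were divided is not given.

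Of the wider oxidase family, the epithelial and other relatives Nox1, Nox3, Nox4, Noxa1, Duox1, Duox2, Duoxa1 and Duoxa2 did not pass the filter on low counts. Cybc1, a chaperone of the membrane dimer, had 74.8 ± 8.22 CPM in TREM-1+, against 79.3 ± 11.1 CPM in TREM-1- eosinophils (SD, n = 6, edgeR adjusted p = 0.362). Hvcn1, the proton channel that balances the oxidase's charge, had 281 ± 34.5 and 292.6 ± 43.7 CPM in TREM-1+ and TREM-1- (adjusted p = 0.452). Upstream of the oxidase, 6 of 15 genes of kinases, Rac exchange factors and GDP dissociation inhibitors were called lower and 1 higher. Calls thus fell on 46.7% of the list, beside 9.82% of all tested genes, with a median of -0.08 beside 0.00. Library totals alone gave 4 higher against 2 lower. The Rac exchange factor gene Tiam1 (log2 fold change -0.49 ± 0.09, SE), the exchange factor gene Vav3 (-0.41 ± 0.05) and Pik3cg (-0.20 ± 0.03), a phosphoinositide kinase downstream of chemoattractant receptors, fell. Pak1, which encodes a kinase activated by Rac, rose (0.56 ± 0.08). The edgeR adjusted p-values of these 4 genes lay between 1.23e-07 for Vav3 and 1.27e-04 for Tiam1, and with library totals alone Pik3cg was not called (-0.08, adjusted p = 0.239).

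Among the redox genes, Txnrd1 had the largest change and was the only one of the 9 whose groups did not overlap. It had 95.7, 104.3, 92.7, 79.1, 98.8 and 87.3 CPM in TREM-1+ libraries, against 127.4, 145.2, 117.6, 109.8, 127.9 and 107.3 CPM in TREM-1- libraries. The highest TREM-1+ value, in lavage 2, lay below the lowest TREM-1- value, in lavage 6. Of all tested genes 0.656% showed such a separation with TREM-1+ lower. Across the pairs the fitted difference was -0.40 ± 0.04 log2 units (SE; edgeR adjusted p = 2.28e-08), or 0.760 times. In the rest of the thioredoxin and peroxiredoxin list 2 of 22 genes were called lower and 1 higher. That is 13.6% of the list, beside 9.82% of all tested genes. The median was 0.00, and library totals alone gave 3 higher against 0 lower. Msra (-0.26 ± 0.06) and Msrb1 (-0.18 ± 0.04), methionine sulfoxide reductase genes whose products draw on thioredoxin, fell, although neither was called with library totals alone (adjusted p = 0.242 for Msra and 0.546 for Msrb1), nor was Msra without lavages 1 and 2 (0.0509). Txnip, the gene of a thioredoxin-binding inhibitor, rose by 0.10 ± 0.03 (adjusted p = 0.0272), a call lost without lavage 1 (0.0515), 2 (0.0503), 4 (0.0839) or 5 (0.0633). The substrate Txn1 had 70.9 ± 13.1 CPM in TREM-1+, against 70.9 ± 10.6 CPM in TREM-1- (SD, n = 6, adjusted p = 0.983). Prdx1, a peroxiredoxin gene, had 28.2 ± 4.87 and 23.9 ± 2.67 CPM in TREM-1+ and TREM-1- (adjusted p = 0.0926). It was called higher without lavage 6 (0.0354) and with library totals alone (0.00809).

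Gpx1, the gene of the main cytosolic glutathione peroxidase, fell as well. Processed copies of a short abundant gene such as this can share its reads, and how such reads were divided is not known here. TREM-1+ libraries held 458.5, 448.4, 373.6, 277.1, 410.4 and 394.7 CPM and TREM-1- libraries 530.7, 603.5, 463.1, 377.2, 460.8 and 468 CPM. The pairs ran from 0.734 times in lavage 4 to 0.891 times in lavage 5, while the groups overlapped because lavage 4 was low in both. The fitted difference was -0.30 ± 0.04 log2 units (SE; edgeR adjusted p = 3.31e-07). Of 21 tested genes of the glutathione system, 14.3% were called, 2 lower and 1 higher, beside 9.82% of all tested genes. The median was 0.03, and library totals alone gave 5 higher against 0 lower. Gsr, which encodes glutathione reductase, averaged 879.7 ± 152 CPM in TREM-1+, against 989 ± 158 CPM in TREM-1- eosinophils (SD, n = 6) and fell by 0.17 on the log2 scale (adjusted p = 2.30e-04), though with library totals alone it was not called (-0.04, adjusted p = 0.557). Gpx4, the lipid hydroperoxide peroxidase gene, fell by 0.24 (adjusted p = 0.0206), a call lost without lavage 1 (0.0695), 2 (0.0639), 3 (0.0519) or 4 (0.0617), without lavages 1 and 2 (0.222) and with library totals alone (0.208). Mgst1, a microsomal glutathione transferase gene, rose by 0.25 ± 0.05 (adjusted p = 9.30e-04), but not without lavages 1 and 2 (0.0602).

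GPX1 and TXNRD1 are selenoproteins, which carry selenocysteine at the active site. Of 22 other genes of selenoproteins and their synthesis, calls numbered 7, all lower (31.8%, beside 6.72% of all tested genes called lower). The median was -0.06, and library totals alone gave 3 lower and 1 higher. Sephs2, whose product makes the selenium donor for selenocysteine, averaged 183 ± 12.3 CPM in TREM-1+, against 247 ± 14.9 CPM in TREM-1- eosinophils (SD, n = 6), and the fitted difference was -0.44 ± 0.04 log2 units (SE; edgeR adjusted p = 5.22e-10). Selenon (-0.34 ± 0.04) and Selenof (-0.25 ± 0.04), genes of selenoproteins of the endoplasmic reticulum, also fell, Selenof not with library totals alone (adjusted p = 0.116). The other 4 lower genes were Gpx4, Msrb1, Selenow and Selenom, of which Gpx4 and Msrb1 were also counted in lists above. The synthesis genes Eefsec, Secisbp2, Pstk, Sepsecs and Trnau1ap were not called.

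Slc7a11, the gene of the light chain of the cystine and glutamate exchanger, was the only one of the 9 that rose. It had 223.1, 197.4, 125.2, 162.2, 132.1 and 129.1 CPM in TREM-1+ libraries of lavages 1 to 6, against 186, 167.6, 102.8, 142.8, 128.2 and 102.8 CPM in TREM-1- libraries. Lavage differences were larger than those of the sort, with lavages 1 and 2 highest in both groups. Within a lavage TREM-1+ was higher by 1.03-fold in lavage 5 to 1.26-fold in lavage 6. Across the pairs the fitted difference was 0.22 ± 0.04 log2 units (SE; edgeR adjusted p = 1.49e-04), and it was 0.35 with library totals alone. The macrophage marker sum given above, with Itgax as its largest term, was also higher in TREM-1+ in 6 of 6 lavages, but in 4 of 6 without Car4. Its part in this result was not tested. Slc3a2, the heavy chain that brings SLC7A11 to the surface, was higher in TREM-1+ in 6 of 6 pairs but not called (344 ± 67.5 CPM in TREM-1+, against 324.9 ± 66.2 CPM in TREM-1-, SD, n = 6, adjusted p = 0.124). The glutamate cysteine ligase genes, which use the imported cysteine, were not called. Gclc had 13.9 ± 2.31 and 11.4 ± 1.23 CPM in TREM-1+ and TREM-1- (adjusted p = 0.116), and Gclm had 36.8 ± 6.15 and 41.7 ± 7.20 CPM (adjusted p = 0.156).

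The promoters of the genes that changed most in each direction, Slc7a11 and Txnrd1, are shown because each holds a letter match to an element through which redox and amino acid stress are known to act on such genes. RefSeq windows (GRCm38.p6, 250 bases before to 50 after a start) were given for 7 of the 9 genes, with 3 windows for Txnrd1, and were searched on both strands. The first element is TGATGCAA, a composite site of C/EBP and ATF factors known as an amino acid response element. The second is TGACNNNGC, the core of the antioxidant response element that NRF2 binds. The windows lie at chr3:50443564-50443863 on the minus strand for Slc7a11 and at chr10:82858956-82859255 on the plus strand for Txnrd1, and capitals mark the matches.
Slc7a11: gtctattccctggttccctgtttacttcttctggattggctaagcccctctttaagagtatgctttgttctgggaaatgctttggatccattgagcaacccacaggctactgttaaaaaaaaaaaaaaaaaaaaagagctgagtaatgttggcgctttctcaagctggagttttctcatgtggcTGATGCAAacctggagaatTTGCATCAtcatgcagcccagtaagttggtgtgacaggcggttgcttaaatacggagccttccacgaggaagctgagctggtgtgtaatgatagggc
Txnrd1: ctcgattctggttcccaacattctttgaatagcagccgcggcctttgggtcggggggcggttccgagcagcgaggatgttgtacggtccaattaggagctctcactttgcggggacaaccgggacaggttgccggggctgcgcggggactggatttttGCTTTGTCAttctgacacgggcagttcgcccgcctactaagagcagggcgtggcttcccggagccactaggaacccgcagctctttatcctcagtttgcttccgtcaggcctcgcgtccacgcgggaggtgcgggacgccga
Slc7a11 holds 2 matches to TGATGCAA, on opposite strands, that begin 66 and 47 bases before the start. Of all 32851 windows 0.895% hold at least 1. The match to TGACNNNGC in Txnrd1 lies on the minus strand and begins 92 bases before that start, and 12.4% of all windows hold one. Of the 9 windows of these genes, 1 held TGATGCAA and 2 held TGACNNNGC, the second being that of Nfe2l2. A match of letters is a description and does not show that a factor binds there.

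Nfe2l2 itself did not pass the test. It had 126.6, 128.6, 102.2, 85.3, 115.4 and 116.5 CPM in TREM-1+, against 132.7, 130.5, 106.7, 87.4, 115.3 and 109.4 CPM in TREM-1- libraries. The pairs differed by 0.954-fold to 1.07-fold in both directions, and the fitted difference was -0.02 ± 0.04 log2 units (SE; edgeR adjusted p = 0.900), or 0.11 with library totals alone. Keap1, whose product marks NRF2 for degradation, had 31.1 ± 4.66 CPM in TREM-1+, against 30.4 ± 2.22 CPM in TREM-1- eosinophils (SD, n = 6, adjusted p = 0.900). Of 11 NRF2 regulators 2 were called lower and 2 higher (36.4% called, beside 9.82% of all tested genes). The median was 0.01, and library totals alone gave 3 higher against 1 lower. Mafk, the gene of a small MAF partner of NRF2, fell by 0.31 on the log2 scale (adjusted p = 4.38e-08), as did Bach1 by 0.16 (adjusted p = 0.00169), a repressor at the same elements, though Bach1 was not called with library totals alone (-0.03, adjusted p = 0.702). Nfe2l1, the gene of a relative of NRF2, rose by 0.20 ± 0.04 (adjusted p = 3.42e-04). Bach2 rose by 0.36 ± 0.11 (adjusted p = 0.0234), a call lost without lavage 1 (0.064), 3 (0.136) or 5 (0.0728).

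Among 19 tested NRF2 target genes, some of them also on the lists above and below, 6 were called lower and 0 higher. This was 31.6% of the list, beside 6.72% of all tested genes called lower, while the median was 0.02. Library totals alone gave 5 higher against 2 lower. Nqo1, a quinone reductase gene widely used as a readout of NRF2, had 4.26, 4.81, 6.24, 4.41, 6.24 and 4.18 CPM in TREM-1+ libraries, against 7.82, 6.08, 8.27, 6.19, 11.4 and 7.69 CPM in TREM-1- libraries. Every TREM-1+ library lay below its partner, at a low level throughout, and the fitted difference was -0.65 ± 0.15 log2 units (SE; edgeR adjusted p = 0.00313). Taldo1 (-0.40 ± 0.04, adjusted p = 1.00e-09), a gene of the pentose phosphate pathway, and Osgin1 (-0.27 ± 0.05, adjusted p = 5.42e-05) fell, Osgin1 not with library totals alone (adjusted p = 0.0965). The other 3 lower genes were Gsr, Pgd and Fth1. Gsr was counted with the glutathione system above, and Taldo1, Pgd and Fth1 are counted again in the lists below. Hmox1, the haem oxygenase gene and another known target, had 6.72 ± 2.18 CPM in TREM-1+, against 5.53 ± 1.62 CPM in TREM-1- (SD, n = 6, adjusted p = 0.414).

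Of 14 tested genes of superoxide dismutases, catalase and haem or iron defence, 2 were called lower and 0 higher. This share of calls, 14.3%, stood beside 9.82% of all tested genes. The median was -0.05, and library totals alone gave 1 call in each direction. Hmox2, the constitutive haem oxygenase gene, fell by 0.36 on the log2 scale (edgeR adjusted p = 8.91e-05). Fth1, the ferritin heavy chain gene, fell by 0.12 (adjusted p = 0.0420), a call lost without lavage 1, 2, 3, 5 or 6 (adjusted p up to 0.246) or without lavages 1 and 2 (0.657), and its value was 0.01 with library totals alone. The dismutase genes were not called: Sod1 had 27.5 ± 2.91 CPM in TREM-1+, against 28.6 ± 3.29 CPM in TREM-1- eosinophils (SD, n = 6, adjusted p = 0.789). Sod2 had 24.4 ± 3.95 and 25.6 ± 8.64 CPM (adjusted p = 0.881). Cat, the catalase gene, had 165.5 ± 39.1 and 182 ± 56.9 CPM (adjusted p = 0.0561) and was called lower without lavage 3 (0.0291) and by limma-voom (0.0353).

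The NADPH that feeds both the oxidase and the reductases comes largely from the pentose phosphate pathway, and genes of its supply went both ways. Calls were made in 5 of 15 tested, 3 higher and 2 lower (33.3%, beside 9.82% of all tested genes). The median was 0.00, and library totals alone gave 6 higher and 1 lower. Taldo1, of the pathway's non-oxidative arm, had 336.8 ± 68.9 CPM in TREM-1+, against 444.9 ± 97.2 CPM in TREM-1- eosinophils (SD, n = 6). Pgd, which makes NADPH in the oxidative arm, fell by 0.15 (edgeR adjusted p = 0.00344), though not with library totals alone (-0.02, adjusted p = 0.773) or without lavages 1 and 2 (0.155). Nadk, the NAD kinase gene, rose by 0.12 ± 0.04 (adjusted p = 0.0278), Idh1 by 0.23 ± 0.07 (0.0289) and Mthfd2 by 0.29 ± 0.09 (0.0376). On leaving out 1 lavage the call of Nadk was lost without 3, 4 or 5 (adjusted p up to 0.126), that of Idh1 without 1, 3, 4 or 5 (up to 0.175) and that of Mthfd2 without 1, 2, 4, 5 or 6 (up to 0.12).

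**Figure D4:**
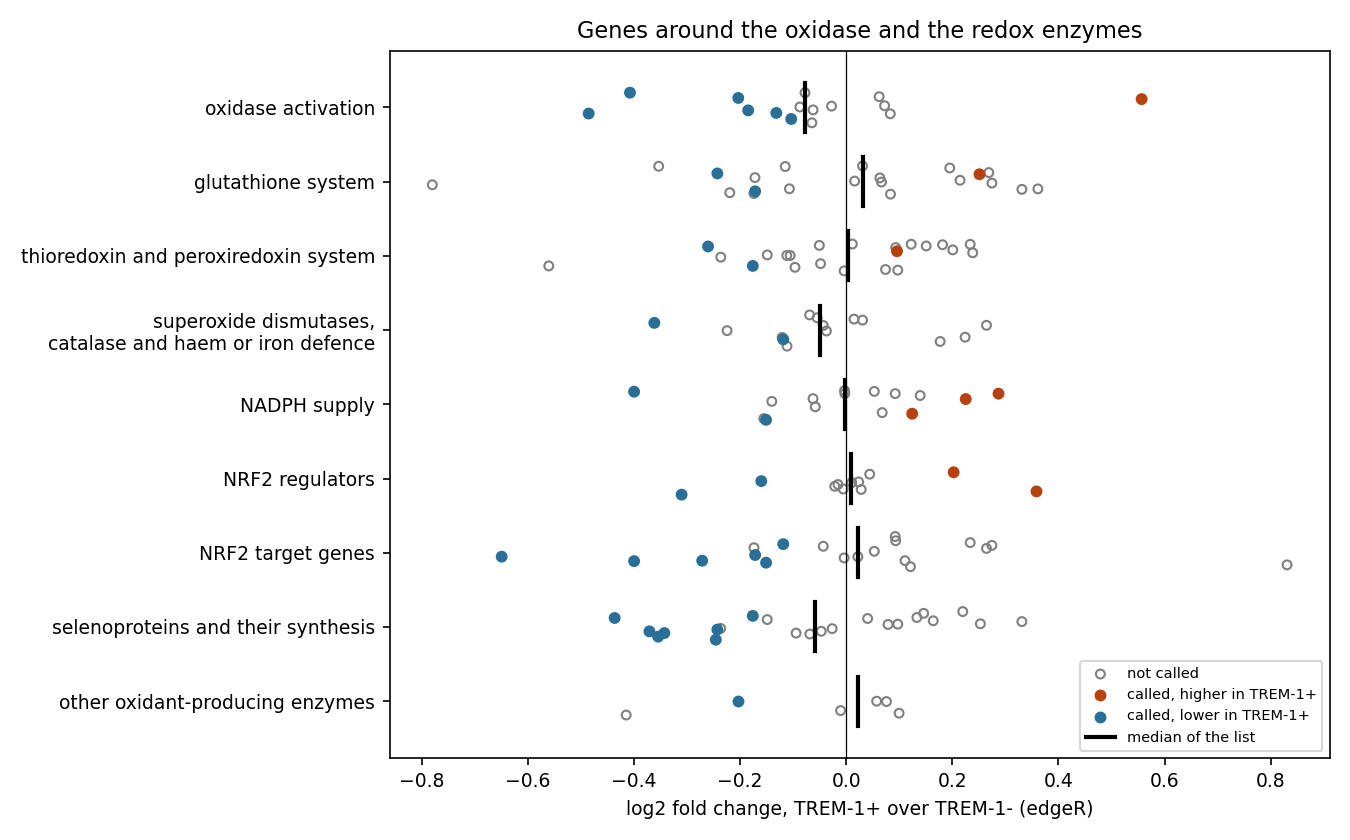
edgeR log2 fold changes, TREM-1+ over TREM-1-, of the tested genes of 9 lists around the oxidase and the redox enzymes; each dot is 1 gene, filled where called (orange higher, blue lower in TREM-1+), and the black bar is the median of the list. Calls lie on both sides of 0 in 5 lists, and the 7 calls among selenoproteins and their synthesis are all lower with TMM scaling, against 3 lower and 1 higher with library totals alone.

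Set side by side, the 5 oxidase genes had 2 lower calls and the 4 redox genes 2 lower calls and 1 higher. The median log2 fold change was -0.10 among the oxidase genes, which ran from -0.19 to 0.01, and -0.16 among the redox genes, which ran from -0.40 to 0.22, beside 0.00 for all tested genes. Averaged within a lavage, the paired log2 difference of the oxidase genes ran from -0.17 in lavage 2 to -0.03 in lavage 5. That of the redox genes ran from -0.19 in lavage 4 to -0.03 in lavage 6. The redox average joined opposite moves: without Slc7a11 it ran from -0.32 in lavage 4 to -0.15 in lavage 6. For Txnrd1 and Gpx1 alone, a choice made after seeing both called lower, it lay between -0.46 and -0.27 in every lavage. The sign of that last average was fixed by the choice. The ratio of Slc7a11 to Txnrd1 per kilobase was 0.683 ± 0.162 in TREM-1+ and 0.442 ± 0.0877 in TREM-1- eosinophils (SD, n = 6), higher in TREM-1+ in 6 of 6 lavages. The ratio of Cybb to Txnrd1 per kilobase, 10.3 ± 1.21 in TREM-1+ against 7.82 ± 1.21 in TREM-1-, was also higher in 6 of 6. These ratios are descriptions with no test, and their directions restate the changes of Slc7a11 and Txnrd1 given above. Among other ratios taken, Slc7a11 to Gpx1 and Ncf4 to Rac2 were each higher in TREM-1+ in 6 of 6 lavages, and Ncf1 to Cybb was lower in 6 of 6. Their directions likewise restate the changes of the single genes. Cybb to Cyba and Slc7a11 to Slc3a2 were each higher in TREM-1+ in 5 of 6 lavages.

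Genes with the most similar profiles over the 12 libraries were found by the root mean square difference of log2 CPM, each gene centred on its mean, among genes of at least 5 CPM. The closest to Rac2 were Pkm (0.023), a glycolytic enzyme gene, and Myh9 (0.028), a non-muscle myosin gene. Ncf1 was closest to Cd37 (0.041), a tetraspanin gene, and Rasa3 (0.048), and Ncf4 to Asap1 (0.034) and Myo18a (0.040). Cybb was closest to Abhd2 (0.055) and Eif2s3x (0.065), and Cyba to Morf4l1 (0.051) and Atp6ap1 (0.052), a gene of the vacuolar proton pump. Oxidase genes were thus not each other's nearest neighbours, though some lay well within the median distance to all compared genes. Of the 9, Ncf1 and Rac2 were closest to each other (0.074, medians 0.249 and 0.269), at places 50 and 57 of 10966 genes. To Cybb the closest of the 9 was Nfe2l2 (0.098, median 0.267), at place 44. Among the redox genes, Txnrd1 was closest to Unc119 (0.064) and Lfng (0.069), Gpx1 to Gpi1 (0.067) and Laptm5 (0.069), and Nfe2l2 to Ythdf1 (0.035) and Dcaf7 (0.041). Slc7a11 had the largest nearest distance of the 9, with Ptp4a1 and Eif1ax at 0.136 each. Its SD of log2 CPM over the 12 libraries (0.356) was also the largest of the 9. So was its median distance to all compared genes (0.381). Because the distance was not scaled to a gene's spread, the larger value does not show a more distinct profile.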

How the data were processed

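The 12 libraries were stranded, made from total RNA after ribosomal depletion, and sequenced with 100 bp paired ends, per the labels' protocols. The authors deposited an estimated count for each gene. The submitters' processing notes list GRCm39 as the build and, without saying what each did, edgeR 3.42.4, kallisto 0.45.0 and R 4.3.0. No source used here names the annotation. Counts were whole as deposited, so rounding changed none. The deposited log2 CPM table (17934 genes) was recomputed from the counts to within 5e-09.

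The test was run in edgeR 4.0.16 (R 4.3.3): filterByExpr (minimum count 10, minimum total 15), TMM factors, robust quasi-likelihood F test, lavage as a block, TREM-1+ minus TREM-1-. Standard errors were derived from F. Paired differences are log2 CPM with a prior count of 1. The alternatives were DESeq2 1.42.0, limma 3.58.1, other scalings, no filter, no block and lavages left out or summed. The procedure was tested on simulated counts. Fractions were paired by lavage, as the design text states. The 2 libraries of a lavage deviated together from their groups (correlation 0.127 to 0.502), but in lavage 3, at 0.127, the best match was a library of lavage 5 and not the partner. Whether different mice gave each pool is not in the labels. With the lavage as a block, p-values reflect only how far the TREM-1+ minus TREM-1- difference varied among these 6 pools. Between lavages 1 and 2 the chi-square per gene (1 under counting noise alone) was 5.26 in TREM-1- and 6.88 in TREM-1+, above sampling noise, and it was 20.61 or more between other lavages. Of the per-sample columns 0 were left unused.

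The 9 genes and the lists were chosen with earlier results of these data known. Named beyond the 9 are fixed pathway partners and, per list, up to 3 called genes in each direction with the smallest p. Likeness used the 2 nearest genes. A gene that this rule names is not reported here.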

Additional observations from a re-analysis of the deposited data

How the results depend on the processing

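Of 135 values of the 9 genes under 15 alternatives, 122 kept their direction and side of the threshold. Without the lavage block the log2 fold changes were almost unchanged but none of the 5 was called: Ncf1 -0.19 (edgeR adjusted p = 0.725), Rac2 -0.18 (0.831), Txnrd1 -0.40 (0.0662), Gpx1 -0.30 (0.569) and Slc7a11 0.22 (0.917). Without the replicate block 83 of all genes, 0 of the 9 and 2 list genes were called, against 1797, 5 and 33 with it. The 33 were 24.8% of 133 tested list genes, each counted once, beside 9.82% of all tested genes. With library totals alone Cybb was 0.14 and called, Ncf1 -0.059 and Rac2 -0.05 were not called, and Cyba 0.024 and Nfe2l2 0.11 turned sign; the 4 calls were 2 higher and 2 lower, and the list genes 25 higher and 9 lower, where TMM gave 8 higher and 25 lower. Small values also turned sign in Cybb without lavage 5 (-0.0069) and in Ncf4 without lavages 1 and 2 (-0.0027) and without lavages 3 and 4 (-0.0067). Without lavages 1 and 2, 1168 genes and 21 list genes were called, and 5 of the 9 genes as before. Leaving out each lavage in turn gave 1421 to 1588 genes, 5 to 5 of the 9 genes and 25 to 32 list genes. Those log2 fold changes ran from -0.0069 to 0.023 in Cybb, -0.12 to -0.06 in Cyba, -0.19 to -0.18 in Ncf1, 0.0012 to 0.021 in Ncf4, -0.19 to -0.14 in Rac2, -0.41 to -0.38 in Txnrd1, -0.32 to -0.27 in Gpx1, 0.21 to 0.26 in Slc7a11 and -0.031 to -0.0016 in Nfe2l2. The causes were not tested. With lavages 1 and 2 summed to 1 pair, with DESeq2, limma-voom or DESeq2-style size factors and with no filter, 1 of the 9 genes was called higher and 4 lower in each case. The smallest count behind the 9 genes was 771, while low genes such as Nqo1 rest on fewer counts.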

Other observations

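A list of 8 other oxidizing or oxidant-producing enzymes gave 1 call in 6 tested genes (16.7%, beside 9.82% of all tested genes), and the other 5 were not called. The call was Cyp4f18, whose product oxidizes leukotriene B4. Cyp4f18 averaged 1468 ± 105 CPM in TREM-1+, against 1692 ± 127 CPM in TREM-1- eosinophils (SD, n = 6, log2 fold change -0.20 ± 0.03, SE, edgeR adjusted p = 6.03e-06), and with library totals alone it was not called (-0.08, adjusted p = 0.233). Epx, which encodes eosinophil peroxidase, stood at 42.3 ± 11.4 CPM in TREM-1+, against 40.0 ± 5.06 CPM in TREM-1- (adjusted p = 0.785). The neutrophil peroxidase gene Mpo did not pass the filter on low counts.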
